A study of Mus musculus with 6 samples.

Results

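To examine inflammatory signalling in adipose stromal cells on collagen-bound ACLP, 10 genes of the NF-κB, Toll-like and IL-1 pathways were taken from the deposited count table by their symbols. They are Nfkbia, Nfkbiz, Tnfaip3, Tlr2, Tlr4, Cd14, Myd88, Il1b, Il1r1 and Tnf, and all 10 were found among the 56748 genes of the table and passed the filter on low counts. The cells were wild-type primary stromal cells of C57BL/6 mice, males and females aged 12 weeks, obtained by collagenase digestion of gonadal white fat and plated directly. The study does not say how the sexes were divided among the libraries. Both groups were kept in medium with serum for 48 h on hydrogels of 12 kPa that carried type I collagen laid down at 0.05 mg/mL. The control gels held collagen alone (col1, n = 3 libraries), and the others held collagen polymerized with 30 nM recombinant ACLP, a collagen-binding matrix protein that had been purified from a human kidney-derived line (col1-ACLP, n = 3). The study calls the 3 libraries of a group biological replicates, but neither it nor the labels say whether they came from separate animals. The p-values therefore set the difference between groups against the variation between these libraries, and whether that is variation between animals is not known.

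Toll-like receptors recognise microbial products, and the IL-1 receptor recognises the cytokines IL-1α and IL-1β. Receptors of both kinds carry the same type of cytoplasmic domain, through which most of them recruit the adaptor MyD88 and then the IRAK kinases and TRAF6. The resulting kinase activity destroys the inhibitor IκBα, so that NF-κB dimers enter the nucleus and switch on cytokine and chemokine genes together with the genes of their own inhibitors. In white fat this pathway is known for the low-grade inflammation of obesity, and it is active in macrophages as well as in stromal cells.

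None of the 10 genes passed the test in this comparison, although 9 of them had a lower fitted level on col1-ACLP. Of all tested genes, 48.9% had a lower fitted level. At the thresholds of the study, an adjusted p under 0.05 and a log2 fold change beyond 0.58 in either direction, 0 of 10 were called by edgeR, against 1.38% of all 17717 tested genes. At an adjusted p under 0.05 alone it was again 0 of 10, against 2.05% of all genes. At both thresholds together the count was also 0 by DESeq2 and by limma-voom. The receptor gene Tlr2 and its co-receptor Cd14 were the farthest from no change (log2 fold changes of -0.51 ± 0.16 and -0.52 ± 0.16, fit ± SE), with an adjusted p = 0.1232 and an adjusted p = 0.1068 by the quasi-likelihood test of edgeR. The inhibitor genes Nfkbia and Tnfaip3 and the adaptor gene Myd88 stood between -0.33 and -0.31. At an unadjusted p under 0.05, 5 of 10 were lower on col1-ACLP and 0 higher, where 7.26% and 7.6% of all tested genes were. The median over the 10 genes was -0.32 on the log2 scale, against 0.01 over all tested genes. The 10 genes were chosen with earlier results of these libraries known, so these shares are a description.

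**Figure D1:**
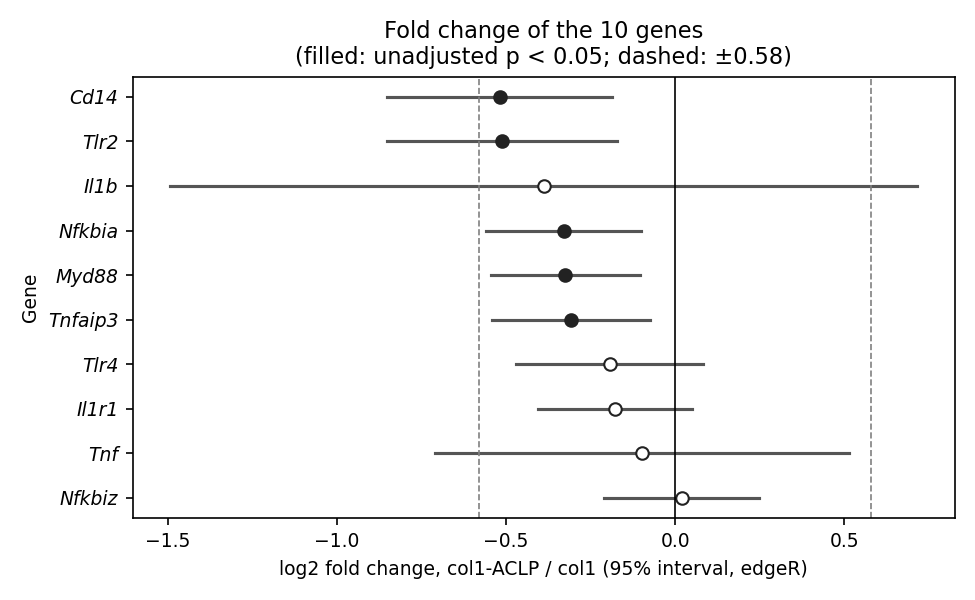
Fitted log2 fold change (x axis, col1-ACLP relative to col1) of each of the 10 genes (y axis), with its 95% interval from edgeR. Filled points had an unadjusted p under 0.05, and dashed lines mark the fold threshold of 0.58 in each direction. The 5 filled points lie between -0.52 and -0.31 with intervals below 0, and the intervals of Il1b and Tnf are the widest.

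Several of these genes are themselves textbook targets of NF-κB, so promoters of 4 of the lower genes are shown here, from the RefSeq promoter table. Cd14, which was also lower, was left out of the promoter search. Each window runs from 250 bases before to 50 bases after the annotated gene start on the strand of the gene, in build GRCm38.p6. Capitals mark matches to the consensus NF-κB decamer on either strand, where matches that overlap run together. Nfkbia encodes IκBα, and its window (chr12:55492598-55492897, minus strand) held 1 match, 29 bases before the start. The Tlr2 window (chr3:83841559-83841858, minus strand) held matches that began 173 and 172 bases before the start, which overlap, and a further match at 8 bases. Tnfaip3 encodes A20, a ubiquitin-editing enzyme that switches off signalling to NF-κB, and its first window (chr10:19015361-19015660, minus strand) held matches at 125 and 12 bases. The Myd88 window (chr9:119339969-119340268, minus strand) held 0 matches and is shown for comparison.
Nfkbia: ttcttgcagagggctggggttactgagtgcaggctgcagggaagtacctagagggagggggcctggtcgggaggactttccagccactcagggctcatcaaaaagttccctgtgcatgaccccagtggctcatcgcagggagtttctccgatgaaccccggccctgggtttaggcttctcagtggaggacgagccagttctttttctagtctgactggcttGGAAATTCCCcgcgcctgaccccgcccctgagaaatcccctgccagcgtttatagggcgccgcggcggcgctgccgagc
Tlr2: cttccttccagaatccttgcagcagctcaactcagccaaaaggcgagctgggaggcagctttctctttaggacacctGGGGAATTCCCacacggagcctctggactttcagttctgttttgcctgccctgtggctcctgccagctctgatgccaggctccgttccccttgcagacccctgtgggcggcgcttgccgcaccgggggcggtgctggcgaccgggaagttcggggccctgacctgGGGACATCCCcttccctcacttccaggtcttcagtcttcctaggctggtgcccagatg
Tnfaip3: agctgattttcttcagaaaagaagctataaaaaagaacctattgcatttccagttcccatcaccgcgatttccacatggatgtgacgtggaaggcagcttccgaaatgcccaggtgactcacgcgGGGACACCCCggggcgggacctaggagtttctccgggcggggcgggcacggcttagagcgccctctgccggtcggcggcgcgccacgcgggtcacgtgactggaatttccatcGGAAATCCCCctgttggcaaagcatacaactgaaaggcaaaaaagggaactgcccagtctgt
Myd88: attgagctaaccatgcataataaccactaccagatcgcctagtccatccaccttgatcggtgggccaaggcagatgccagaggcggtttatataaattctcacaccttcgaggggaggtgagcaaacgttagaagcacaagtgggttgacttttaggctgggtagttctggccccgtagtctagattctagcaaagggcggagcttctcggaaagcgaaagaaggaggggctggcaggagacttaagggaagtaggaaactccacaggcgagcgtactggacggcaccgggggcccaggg
A match was found in 8.46% of the 32851 windows of that table, or in at least 1 window of 9.55% of its 27025 genes. Windows of 7 of the 10 genes were searched, and Nfkbiz, Tlr4 and Cd14 were not covered. Of the 7, 4 had a match in at least 1 window, the other being Il1r1 in the second of its 2 windows. The percentages above cover the whole table, so the 4 of 7 is not directly comparable with them. Il1b and Tnf had 0 matches in these windows. A match is a run of letters and does not show binding.

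The 10 genes covered a wide range of abundance. On a scale that allows genes to be compared, CPM (the counts of a gene brought to one shared library size) per kilobase of gene length, Nfkbia was the most abundant on col1 at 161 ± 18.2 (mean ± SD, n = 3). It was followed by the receptor gene Il1r1 at 73.8 ± 5.36, Myd88 at 41.2 ± 3.18, Nfkbiz at 19.5 ± 2.2 and Cd14 at 17.4 ± 3.39. Tlr2 at 9.3 ± 0.584, Tnfaip3 at 8.35 ± 0.641 and Tlr4 at 6.99 ± 0.933 came next, and the cytokine genes were last, Tnf at 3.71 ± 0.762 and Il1b at 0.827 ± 0.506. Among neighbours in this order, the library values overlapped for Nfkbiz and Cd14, for Tlr2 and Tnfaip3, and for Tnfaip3 and Tlr4. The other neighbours did not overlap. On col1-ACLP the order was the same except that Tnfaip3 (6.74 ± 0.143) stood above Tlr2 (6.53 ± 1.49), a pair whose values overlapped.

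**Figure D2:**
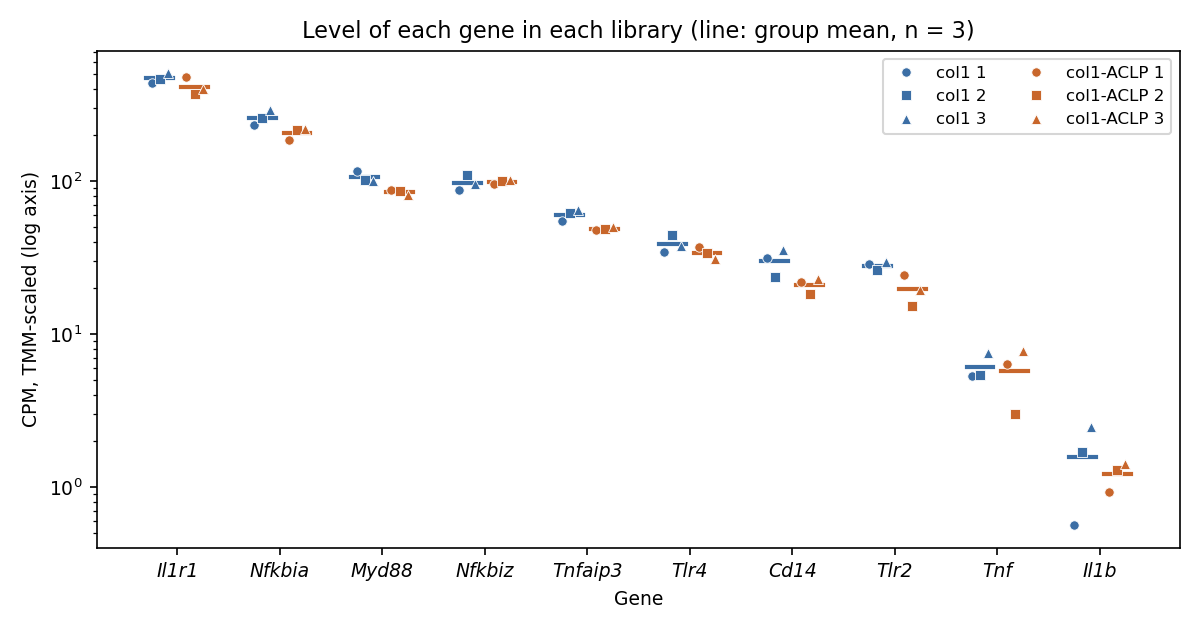
Level of each gene (x axis) in each of the 6 libraries as CPM on a log axis, with circles, squares and triangles for libraries 1, 2 and 3 and a line for the mean of each group. The col1-ACLP libraries of Nfkbia, Myd88, Tnfaip3, Cd14 and Tlr2 all lie below the col1 libraries, and those of the other 5 genes overlap with them.

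Among the inhibitor genes, Nfkbia stood at 232, 257 and 290 CPM on col1 against 186, 214 and 220 on col1-ACLP. The groups did not overlap, and the fitted level was 0.80 times that on col1 (95% interval 0.68 to 0.93, adjusted p = 0.1416). Nfkbia lies on chromosome 12 at 55536195-55539432 of GRCm39, the build of all gene positions given here, and overlaps no other counted gene. Tnfaip3, on chromosome 10 at 18876658-18891405, stood at 55.2, 61.5 and 64.3 CPM on col1 against 47.7, 48.7 and 49.8 on col1-ACLP. These groups did not overlap either, and the log2 fold change was -0.31 with an interval of -0.54 to -0.07 (adjusted p = 0.1846).

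Nfkbiz encodes IκBζ, an inducible nuclear protein that, unlike IκBα, helps NF-κB to activate a set of secondary genes including some of the acute phase. It differed little between the groups, at 87.9, 110 and 95.4 CPM on col1 against 95.5, 99.6 and 102 on col1-ACLP, and the values overlapped. Its log2 fold change was 0.02 with a 95% interval of -0.21 to 0.25, and its sign changed with upper-quartile scaling (-0.002). The ratio of Nfkbia to Nfkbiz reads within a library does not depend on the scaling of libraries. That ratio was 2.64, 2.35 and 3.04 on col1 and 1.95, 2.15 and 2.16 on col1-ACLP, which do not overlap (exact permutation test, two-sided, p = 0.1, the smallest that 3 against 3 allows). It was chosen after the values were seen.

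Of the receptors, Tlr2, which recognises bacterial lipopeptides, stood at 28.6, 26.0 and 29.4 CPM on col1 against 24.3, 15.4 and 19.3 on col1-ACLP. The col1 libraries lay close together, whereas the col1-ACLP libraries spread by 22.8% (SD relative to the mean), library 2 being the lowest and library 1 the nearest to col1. The gene lies on chromosome 3 at 83743579-83749074 and overlaps no other counted gene. Without col1-ACLP 1 its log2 fold change was -0.69 (adjusted p = 0.05196), and without col1-ACLP 2 it was -0.36.

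Cd14 encodes a membrane protein that hands lipopolysaccharide to TLR4 and lipopeptides to TLR2. It stood at 31.4, 23.7 and 35.2 CPM on col1 against 21.8, 18.4 and 22.8 on col1-ACLP, and the lowest col1 library, number 2, was just above the highest col1-ACLP library. The mean was 30.2% lower on col1-ACLP, and the fitted fold was 0.70 (95% interval 0.55 to 0.88). Leaving out col1 2 carried Cd14 past both thresholds (log2 fold change -0.68, adjusted p = 0.03897), and this was the only change of a call for the 10 genes in the alternatives run.

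The lipopolysaccharide receptor gene Tlr4 stood at 34.4, 44.5 and 37.5 CPM on col1 against 37.0, 33.8 and 31.1 on col1-ACLP. The groups overlapped, and its log2 fold change of -0.19 had an interval of -0.47 to 0.08 (adjusted p = 0.5401). It was -0.09 without col1 2, the highest library. The authors' table also counts a long noncoding RNA within the span of Tlr4 at 42.4% of its counts, but the exons of the genes share 0 bases in the GENCODE vM39 annotation. Reads of Tlr2 per read of Tlr4 were 0.831, 0.585 and 0.786 on col1 and 0.657, 0.455 and 0.622 on col1-ACLP, and these overlapped (exact permutation test, p = 0.3).

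Il1r1, the receptor for IL-1α and IL-1β, had the most counts of the 10 genes before division by length. It stood at 438, 465 and 506 CPM on col1 against 475, 372 and 398 on col1-ACLP, and col1-ACLP 1 lay within the col1 range. Its log2 fold change was -0.18, with an interval of -0.41 to 0.05 (adjusted p = 0.4774). Leaving out col1-ACLP 1 moved it to -0.29 (adjusted p = 0.2233) and leaving out col1-ACLP 2 to -0.10.

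The adaptor gene Myd88 stood at 116, 102 and 100 CPM on col1 against 87.5, 85.7 and 80.9 on col1-ACLP. The libraries within each group lay close together and the groups did not overlap, with a fitted fold of 0.80 (95% interval 0.69 to 0.93, adjusted p = 0.1311). Myd88, on chromosome 9 at 119165000-119170477, shares 16.2% of its exonic bases with Acaa1a, a peroxisomal thiolase gene on the opposite strand that had 157% as many counts. Whether counting used strand is not given in the sources used here, so the value of Myd88 is uncertain. Acaa1a itself was at -0.25 ± 0.11 on the log2 scale (edgeR, adjusted p = 0.3102).

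The cytokine genes were the least abundant and, on col1, the most variable. Il1b had 19, 81 and 106 counts on col1 and 37, 57 and 52 on col1-ACLP, which is 0.563, 1.69 and 2.48 CPM against 0.927, 1.29 and 1.41 CPM. Within col1 the highest library was 4.41 times the lowest, and the col1-ACLP values fell inside the col1 range. The log2 fold change of -0.39 had an interval of -1.49 to 0.72, the widest of the 10 genes. Tnf stood at 5.31, 5.41 and 7.52 CPM on col1 against 6.34, 3.01 and 7.74 on col1-ACLP. Both the lowest and the highest library of Tnf were on col1-ACLP, and its log2 fold change was -0.10 with an interval of -0.71 to 0.51. Leaving out col1 3 turned the sign of both cytokine genes (0.09 for Il1b and 0.07 for Tnf), and so did leaving out col1-ACLP 2 for Tnf (0.21).

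Gene by gene, 5 of the 10 genes were lower with no overlap between the groups (Nfkbia, Tnfaip3, Tlr2, Cd14 and Myd88), 0 were higher, and 5 overlapped. Among all tested genes 10.2% were lower with no overlap and 10.2% higher. In CPM without TMM scaling the number was also 5. By library, 8, 9 and 8 of the 10 genes were below the col1 mean in col1-ACLP 1, 2 and 3, and 7, 6 and 3 were in col1 1, 2 and 3. Against that mean the median over the 10 genes was -0.24, -0.31 and -0.26 on the log2 scale in the col1-ACLP libraries. It was -0.14, -0.01 and 0.10 in the col1 libraries, of which col1 3 had the highest value of Nfkbia, Tnfaip3, Tlr2, Cd14, Il1b and Il1r1 among all 6 libraries.

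**Figure D3:**
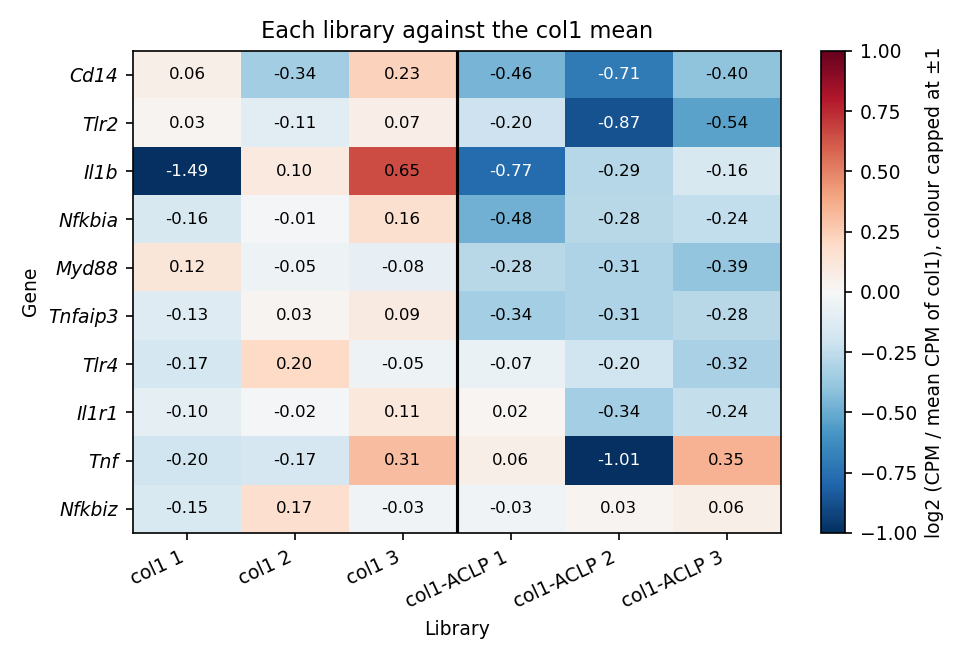
Each library (x axis) relative to the mean of the col1 libraries for each gene (y axis), as log2 of the ratio of CPM values, with the colour capped at 1 in each direction. Rows are ordered by the fitted fold change, and the black line separates the groups. Nfkbia, Tnfaip3, Tlr2, Cd14 and Myd88 are below the col1 mean in all 3 col1-ACLP libraries, whereas among those libraries Tnf is below it in col1-ACLP 2 only.

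The tools and settings differed over adjusted p but not over direction for the 5 lower genes. By DESeq2 the adjusted p was under 0.05 for Myd88 (adjusted p = 0.03732) and Cd14 (adjusted p = 0.0407), both short of the fold threshold. That is 2 of 10, against 2.76% of genes lowered at that adjusted p alone. By limma-voom 0 of 10 and by edgeR 0 of 10 reached it, where edgeR lowered 1.12% of all genes at that adjusted p alone. Without a filter on low counts edgeR gave an adjusted p under 0.05 to Tlr2 (adjusted p = 0.0353) and Cd14 (adjusted p = 0.02551), against 1.09% of genes. The number at an unadjusted p under 0.05 was 5 under each tool, scaling and filter, but 3 without col1 3 and 6 without col1-ACLP 1.

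The tissue of origin holds several cell types, and in bulk RNA fewer cells of a type cannot be told apart from less RNA per cell. Stromal markers were abundant, with Pdgfra at 983 ± 41.7 CPM on col1 (log2 fold change -0.14 ± 0.11). Their sum was between 17255 and 19953 CPM on col1 (mean 18313) and between 18418 and 26730 on col1-ACLP (mean 22397), ranges that overlap. Most of that sum was Col1a1 (mean 5022 CPM on col1, 8690 on col1-ACLP) and Col3a1 (6886 and 9069). Both were above 0, so the sum mainly follows these collagen genes and not the other markers. Of the 14 stromal progenitor markers, 11 were below 0, with a median of -0.20. Cd34 (-0.65 ± 0.10), Ly6a (-0.68 ± 0.09) and Pi16 (-1.16 ± 0.18) were lowered and Col1a1 (0.79 ± 0.14) was raised. Dcn passed the adjusted p alone (-0.57 ± 0.10, adjusted p = 0.006678). In addition macrophage markers, a list of 21 genes, were detected in every library as a sum. Macrophages are rich in Tlr2, Cd14, Il1b and Tnf. The macrophage markers summed to between 920 and 1082 CPM on col1 against between 898 and 997 on col1-ACLP, ranges that overlap, with the mean 6.6% lower on col1-ACLP. Among the macrophage markers Lyz2 was the largest part of this sum, at a mean of 339 CPM on col1 and 349 on col1-ACLP (log2 fold change 0.04 ± 0.11). Of these markers 19 were tested, 0 passed either way by edgeR, 15 were below 0 with a median of -0.17, 3 were lower at an unadjusted p under 0.05 (Mrc1, Fcer1g and Laptm5), and 0 were at zero in all libraries. Csf1r was at -0.07 ± 0.12 and Adgre1 at -0.18 ± 0.15 on the log2 scale. Dendritic cell markers summed to between 61.1 and 65.8 CPM on col1 and to between 48.9 and 56.5 on col1-ACLP, which do not overlap, with the mean 14.8% lower. Of the 7 tested 0 passed and 6 were below 0, and Cd209a was at zero in all libraries. The part of any cell type of this paragraph in the lower values of Tlr2 and Cd14 was not tested. Among 9 endothelial markers 0 passed, and their sum was between 928 and 1098 CPM against 849 to 1008 CPM. Of 6 tested mast cell markers, 3 were lowered (Mcpt4, Tpsb2 and Cma1). The mast cell list summed to between 89.6 and 92.9 CPM on col1 and between 76.1 and 79.5 on col1-ACLP, which do not overlap. Of 9 mesothelial markers 1 was lowered (Upk3b), with a median of -0.46, and 4 were lower and 0 higher at an unadjusted p under 0.05. Of 4 tested neutrophil markers 0 passed, and that list summed to 7.49 to 9.23 CPM against 5.46 to 7.77 CPM. Of 9 mural cell markers 0 passed, with a median of 0.12. T, B and NK cell markers summed to at most 2.16 CPM.

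Around the 10 genes, lists of the pathway were described by the same fit, without a test of the list. The lists were chosen with earlier results of these libraries known, so the shares below are a description. The 7 lists held 133 genes in all, of which 129 were tested, 9 were lowered and 0 raised, where 0.722% and 0.66% of all tested genes were. Their median was -0.13, and -0.12 for the 119 tested genes outside the 10. At an unadjusted p under 0.05, 31 of these 119 genes were lower and 7 higher, against 7.26% and 7.6% of all tested genes. Of all tested genes, 48.9% were below 0.

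The core of the pathway showed no calls. Of 13 NF-κB subunits and activating kinases 0 were raised or lowered, with a median of 0.06, and 1 of them was lower at an unadjusted p under 0.05. That gene was Rela, the main transactivating subunit, at 136 ± 15.7 CPM on col1 against 112 ± 9.07 on col1-ACLP (-0.27 ± 0.11, adjusted p = 0.2482). Its partner Nfkb1 was at 0.05 ± 0.10. The value of Nfkb2 (-0.13 ± 0.11) is uncertain, because 24.5% of its exonic bases are shared with Psd on the opposite strand. Of 16 IκB proteins and inhibitors 0 passed, with a median of -0.04, and 3 were lower at an unadjusted p under 0.05, namely Nfkbia, Tnfaip3 and Bcl3.

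Of 17 tested Toll-like receptors and accessory proteins 0 passed, 15 were below 0 and the median was -0.22. At an unadjusted p under 0.05, 4 were lower and 0 higher. Besides Tlr2 and Cd14 these were Lbp (-0.63 ± 0.18, adjusted p = 0.07825) and Unc93b1 (-0.36 ± 0.11, adjusted p = 0.09301). Ly96, which encodes the lipopolysaccharide-binding partner of TLR4, was at -0.29 ± 0.16 (adjusted p = 0.4321). Of 15 adaptors and kinases 0 passed, with a median of 0.01. In that list Irak1 and Irak2 stood above 0, opposite to Myd88. Irak1 was at 0.30 ± 0.12 (adjusted p = 0.2271), and Irak2, whose kinase-like product prolongs the response, stood at 23.3, 36.3 and 31.9 CPM on col1 against 40.6, 58.4 and 44.6 on col1-ACLP. The groups did not overlap, and its log2 fold change of 0.65 ± 0.16 just missed the adjusted threshold (adjusted p = 0.05175). DESeq2 (adjusted p = 0.008996) and limma-voom (adjusted p = 0.03953) did call it, as did edgeR with upper-quartile scaling, without a filter, with a stricter filter, or without col1 2 (adjusted p = 0.03787). It was not called when any other library was left out (adjusted p = 0.05068 to 0.1849), and its log2 fold change was short of 0.58 without col1 1 (0.49) and without col1-ACLP 2 (0.48). Tirap, which encodes the bridging adaptor of TLR2 and TLR4, was at 0.58 ± 0.17 (adjusted p = 0.09465) and was called by DESeq2 (adjusted p = 0.03565) and without a filter (adjusted p = 0.04531). Traf6 was at 0.04 ± 0.12. Irak3 (-0.17 ± 0.14) and Irak4 (0.01 ± 0.13) each overlap exons of a more abundant gene, so their values are uncertain.

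Among 17 genes of the IL-1 family and the inflammasome 3 were lowered and 0 raised, with a median of -0.39. At an unadjusted p under 0.05, 7 were lower and 1 higher. The higher gene was Il1rl1 (0.33 ± 0.13, edgeR, adjusted p = 0.2274). Il1r2 (-0.73 ± 0.18, adjusted p = 0.05113) just missed the adjusted threshold, and Gsdmd was at -0.44 ± 0.12 (adjusted p = 0.06939). Pycard, which encodes the inflammasome adaptor ASC, dropped from 20.9 ± 2.02 to 12.9 ± 0.187 CPM (-0.70 ± 0.15, adjusted p = 0.01887). Its call was lost when col1 3 (adjusted p = 0.0974), col1-ACLP 1 (0.0576) or col1-ACLP 3 (0.08697) was left out of the edgeR fit. Il33, the nuclear alarmin of the family, dropped from 112 ± 11.1 to 63.7 ± 9.45 CPM (-0.82 ± 0.12, adjusted p = 0.001744). Il18bp, a secreted decoy for IL-18, fell too (-0.90 ± 0.13, adjusted p = 0.00139), but it shares 8.98% of its exonic bases with Numa1, whose counts were 464% of its own, and its value is therefore uncertain. Numa1 itself was at 0.04 ± 0.11.

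Il1rn encodes the receptor antagonist that competes with IL-1 for the product of Il1r1. It stood at 109, 102 and 123 CPM on col1 against 85.5, 73.6 and 74.2 on col1-ACLP, with no overlap. Its adjusted p passed at a fold short of the threshold (-0.52 ± 0.11, adjusted p = 0.0202), and both thresholds were passed when col1 2 (-0.59) or col1-ACLP 1 (-0.60) was left out. Its adjusted p was above 0.05 when col1 3 (-0.46, adjusted p = 0.1178), col1-ACLP 2 (-0.48, adjusted p = 0.06481) or col1-ACLP 3 (-0.49, adjusted p = 0.1297) was left out. Reads of Il1r1 per read of Il1rn were 4.01, 4.55 and 4.1 on col1 and 5.56, 5.05 and 5.37 on col1-ACLP, which do not overlap (exact permutation test, two-sided, p = 0.1, the smallest possible; chosen after the values were seen). Il1a was at 0.47 ± 0.29 (adjusted p = 0.4845) and the co-receptor gene Il1rap at 0.27 ± 0.16 (adjusted p = 0.4804).

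Of 16 tested genes of TNF signalling 1 was lowered, with a median of -0.09. That gene was Traf1, an adaptor of TNF receptors that is itself induced by NF-κB, at 15.9, 15.04 and 14.1 CPM on col1 against 10.1, 10.2 and 8.15 on col1-ACLP (-0.66 ± 0.17, adjusted p = 0.04889). Its adjusted p was above 0.05 by limma-voom (adjusted p = 0.05216) and without any single library (0.06061 to 0.2234 over the 6 omissions). The receptor gene Tnfrsf1a stood at 433 ± 36.2 CPM on col1 against 353 ± 2.73 on col1-ACLP (-0.30 ± 0.10, adjusted p = 0.1364), and Tnfrsf1b was at -0.02 ± 0.10.

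Among 35 tested target genes of NF-κB 5 were lowered and 0 raised, where 0.722% and 0.66% of all tested genes were. This list too was chosen with earlier results known, so its shares are a description. The median was -0.27, and 28 were below 0, against 48.9% of all tested genes. The lowered genes were Saa3, Lcn2, Steap4, Ptx3 and Csf3. Saa3, which encodes a serum amyloid A protein, stood at 4294 ± 624 CPM on col1 and fell to 1518 ± 232 (-1.50 ± 0.12), and Lcn2, which encodes an iron-siderophore carrier, from 164 ± 6.66 to 80.8 ± 6.95 CPM (-1.02 ± 0.10). Steap4, a metalloreductase gene induced by inflammatory cytokines in fat, dropped from 482 ± 13.3 to 276 ± 34.5 CPM (-0.80 ± 0.10, adjusted p = 0.000469). The neutrophil growth factor gene Csf3 went from 27.4 ± 3.07 to 14.6 ± 4.33 CPM (-0.91 ± 0.19, adjusted p = 0.01893), a call lost when col1 2 (adjusted p = 0.05486), col1 3 (0.083) or col1-ACLP 1 (0.05196) was left out. The long pentraxin gene Ptx3 was at -0.58 ± 0.11, at the fold threshold, and lost its call when col1 3 (adjusted p = 0.05021), col1-ACLP 1 (-0.50) or col1-ACLP 2 (-0.54) was left out. At an adjusted p under 0.05 alone 9 targets were lower, where 1.12% of all tested genes were. The other 4 were Mmp3 (-0.57 ± 0.10, adjusted p = 0.004457), Plau (-0.53 ± 0.10, adjusted p = 0.009693), Cebpd (-0.57 ± 0.11, adjusted p = 0.01259) and the complement gene C3 (-0.47 ± 0.12, adjusted p = 0.0432), all short of the fold threshold. Targets above that adjusted p included the cytokine and chemokine genes Il6 (-0.22 ± 0.15), Cxcl1 (-0.20 ± 0.14) and Ccl2 (-0.11 ± 0.12) and the adhesion gene Icam1 (-0.01 ± 0.16). Also above it, but lower at an unadjusted p under 0.05, were Irf1 (-0.43 ± 0.11, adjusted p = 0.05041), Bcl2l1 (-0.45 ± 0.12), Sod2 (-0.33 ± 0.10), Vcam1 (-0.36 ± 0.12), Ccl5 (-0.54 ± 0.17) and Sele (-1.59 ± 0.49). At that unadjusted p 15 targets were lower and 3 higher, the latter being Ptgs2, Tnfaip6 and Mmp9. Ptgs2, which encodes the inducible cyclooxygenase, was at 0.75 ± 0.19 (adjusted p = 0.05664). It was called by limma-voom (adjusted p = 0.02162), with upper-quartile scaling (adjusted p = 0.04623), without a filter, with a stricter filter (adjusted p = 0.03096) and without col1 2 (adjusted p = 0.01443), but not by DESeq2 (adjusted p = 0.1586) or when any other library was left out (adjusted p = 0.05628 to 0.148).

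**Figure D4:**
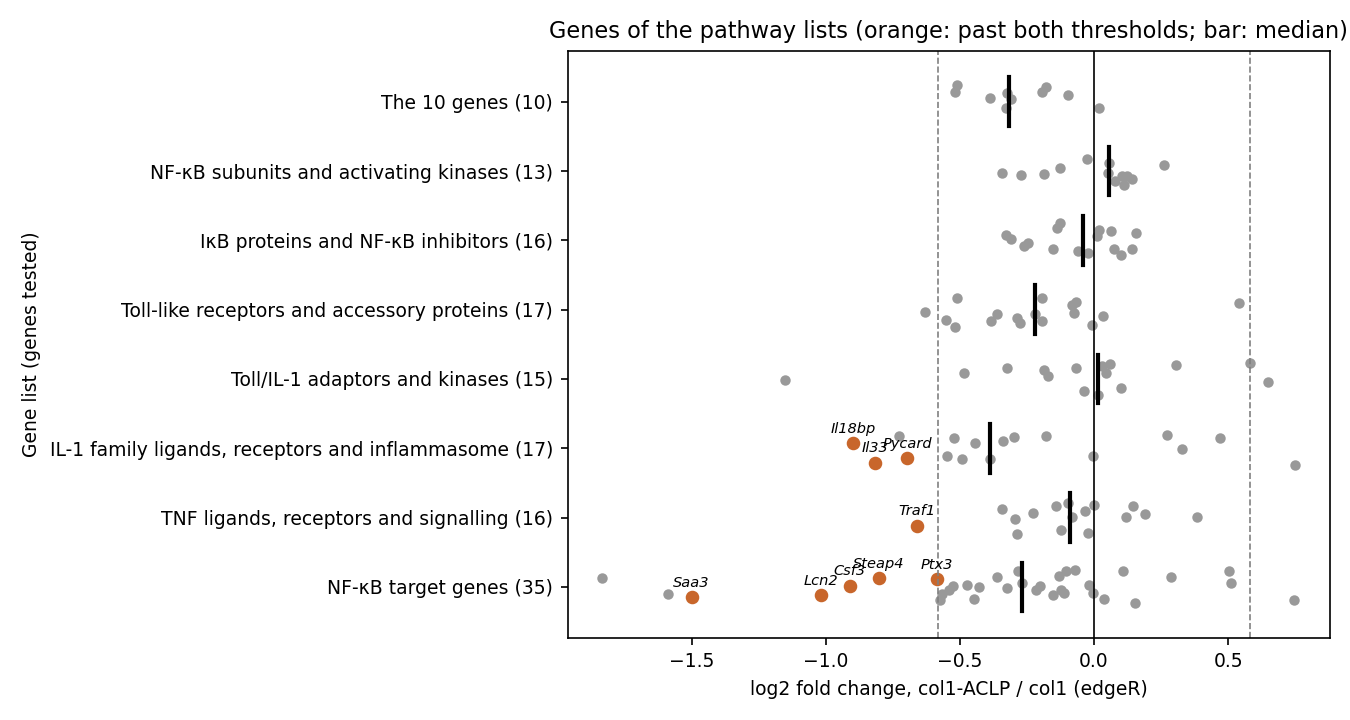
Fitted log2 fold change (x axis, col1-ACLP relative to col1) of every tested gene of the 10 and of the 7 pathway lists (y axis, number of genes tested in parentheses), with black bars at the medians and dashed lines at the fold threshold. Orange points passed both thresholds by edgeR and all lie below 0, in the IL-1 family, TNF and target lists, while the lists of subunits, inhibitors, receptors and adaptors hold 0 such points.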

How the data were processed

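PolyA RNA was sequenced as paired reads from 6 libraries. The authors deposited raw counts per gene in whole numbers. The study's methods name HISAT2 and GRCm39, whereas the submitters' processing notes name mm10. Of 56017 identifiers shared with GENCODE vM39, 92.01% had a start within 1000 bases, so positions are read as GRCm39. Neither the counting program nor whether it used strand is given in the sources used here.

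Columns were assigned by the names the sample descriptions quote, and 0 other per-sample columns existed. Library totals were 33343651 to 47142754 counts, and 3 counts correspond to 0.0624 to 0.0889 CPM (counting error only). Replicates differed by more than sampling noise (chi-square per degree of freedom 24.4 to 69.1). Genes were filtered with filterByExpr (minimum count 10, minimum total 15), scaled by TMM and tested with edgeR 4.0.16 (quasi-likelihood, two-sided, group only, Benjamini-Hochberg over 17717 genes). DESeq2 1.42.0 and limma 3.58.1 were alternatives, as were other scalings, filters, a replicate block and leaving out each library. The fits were tested on simulated data.

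The genes and lists were chosen with earlier results of these data known. Named are the 10 genes, every gene of the 7 pathway lists past both thresholds (or, in a list without one, the 2 with the smallest p among those with an adjusted p under 0.05), and a fixed set of receptors, kinases and subunits. Fcer1g, Laptm5, Mrc1, Lyz2, Bcl3, Tirap, Ptgs2, Mmp3, Plau, Cebpd, C3, Mmp9, Il6, Cxcl1, Ccl2, Icam1, Il1r2, Il1rl1, Gsdmd, Lbp, Unc93b1, Irf1, Bcl2l1, Sod2, Vcam1, Ccl5, Sele, Tnfaip6, Csf1r, Adgre1, Pdgfra, Dcn, Cd34, Ly6a, Pi16, Col1a1, Col3a1, Cd209a, Upk3b and the mast cell genes were named outside that rule after their values were seen.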

Additional observations from a re-analysis of the deposited data

How the results depend on the processing

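The number of the 10 genes called was 0 under each tool, scaling, filter and the replicate block, and 0 to 1 when single libraries were left out. In all, 245 genes changed, 389 without a filter on low counts and 148 to 289 without single libraries (157 on omitting col1 1, 163 for col1 3, 151 for col1-ACLP 1 and 148 for col1-ACLP 3). Of the pathway lists, 9 genes were lowered, 6 to 12 without single libraries. None were raised (0), but 2 were with DESeq2, limma-voom, upper-quartile scaling, the stricter filter (at least 1 CPM in 3 libraries) and the replicate block, 3 without a filter, and 0 to 2 without single libraries. Those genes were Irak2 with Tirap (DESeq2), Irak2 with Ptgs2 (the other settings), all 3 of these without a filter, and Mmp9 alone without col1-ACLP 2. The sign of small values turned: Nfkbiz was -0.0018 and Irak4 -0.0104 with upper-quartile scaling. Without single libraries Nfkbiz ranged from -0.0528 to 0.10, Il1b from -0.78 to 0.0853, Tnf from -0.38 to 0.21, Irak4 from -0.0835 to 0.0609, Traf6 from -0.0191 to 0.0811 and Tnfrsf1b from -0.0564 to 0.0067. The cause was not tested.

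Same-numbered libraries of the groups did not deviate together (correlations of -0.03 to -0.01 across genes), which gave no sign of pairing. These correlations cannot exclude that same-numbered libraries shared a cell preparation. With the replicate block 194 genes changed, Pycard (adjusted p = 0.05379) and Traf1 (adjusted p = 0.09635) lost their calls, Irak2 (adjusted p = 0.02796) and Ptgs2 (adjusted p = 0.03586) gained one, and Il1rn had an adjusted p = 0.05881. At this depth Il1b, with 19 to 106 counts, was limited by its spread between libraries.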
